A study of Mus musculus with 14 samples.

Results

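Mitochondrial ribosomal proteins are the nuclear-encoded proteins of the ribosome that works inside mitochondria. They were followed here in mouse tumours labelled as controls or as Hif2alpha deficient. HIF-2alpha is the product of Epas1 and a transcription factor that oxygen keeps low. The members are all genes whose single symbol in the platform annotation begins with Mrpl or Mrps followed by a digit, each represented by its probeset with the highest mean over the 14 arrays. That gave 74 genes out of 12393 with a probeset of their own, drawn from 127 probesets, with 47 Mrpl and 27 Mrps symbols. RefSeq holds 78 coding genes with such a symbol, and Mrpl30, Mrpl53, Mrps10 and Mrps27 are not among the members. Mrpl30 and Mrpl53, and a further probeset for Mrps34, occur on probesets that name several genes, and those 3 probesets were set aside.

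Total RNA came from tumours of 7 mice labelled as controls and 7 labelled Hif2alpha deficient, the same samples that the titles call Hif 2alpha Knockdown. All were on a mixed 129 SvJ/C57Bl6 background, and each tumour RNA was hybridised to 1 Affymetrix expression array. The organ, the age of the mice, the alleles, the part of Epas1 that was lost and what drove its loss are not given in the sources used here, nor is the allele that produced the tumours. The design counts 7 mice in each group, and the labels do not tie arrays to animals, so p-values measure the spread between these 14 tumour samples.

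The mitochondrial ribosome translates the few messages of mitochondrial DNA, which encode core subunits of the respiratory chain and ATP synthase. It has a small subunit, which decodes the message, and a large subunit, which joins amino acids. Many of its proteins have counterparts in bacterial ribosomes, and others are specific to mitochondria. All of its proteins are made in the cytosol and imported. Hypoxia-inducible factors are known for regulating genes of energy metabolism. The comparison is of the messages for this organellar machine in tumours labelled as controls and as Hif2alpha deficient.

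Values are log2 probeset levels made with GCRMA by the authors, and a difference is the deficient mean minus the control mean on that scale. Levels of different probesets are not compared, because probes differ in how strongly they bind. A probeset was tested if its value was above 4 in at least 7 of the 14 arrays, and it was called at an adjusted p under 0.05 in limma, with Benjamini-Hochberg adjustment over all 12701 tested probesets. Of the 74 genes, 73 passed that filter, all of them with values above 4 in 14 of 14 arrays. Mrps5, a small subunit protein, was left out, with a control level of 3.89 ± 0.29 (SD, n = 7), a deficient level of 4.12 ± 0.72 (SD, n = 7) and values above 4 in 6 arrays. In the deficient group its values ran from 3.60 through a median of 3.69 to 5.50, the highest being deficient tumour 3.

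Facts of the whole series frame these values. Array medians lay between 5.12 and 5.29. The Epas1 probeset read 5.84 ± 0.69 in the 7 controls against 5.65 ± 0.51 (SD) in the 7 deficient tumours, a difference of -0.19 (SE 0.30, limma adjusted p = 0.807). Whether this probeset lies in the part of the gene that was lost is not given, so it does not check the labels. Surfactant and other alveolar type II cell genes, 7 of 8 on the array, were high in both groups, for example Sftpc at 13.85 ± 0.06 and 13.89 ± 0.15 (SD, n = 7 each). Club cell, ciliated cell and endothelial markers varied widely between tumours. Deficient tumours 1, 3 and 5 stood apart from the rest in the members' levels, and values without them, a choice made after seeing the data, are given where they differ most. The sample descriptions carry numbers whose meaning the labels do not give. Grouped by their leading digits they form 6 sets, and 0 of these hold tumours of both study groups. The trailing numbers of the deficient tumours also all lie below those of the controls, so what these numbers stand for and the study group cannot be told apart. In bulk tumour RNA, fewer cells of a type and less RNA per cell cannot be told apart.

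The promoters of 4 members are shown first, because HIF-2alpha acts through short DNA sequences near the genes it regulates. Mrpl32, Mrps6 and Mrps17 are the members with an unadjusted p under 0.05, and Mrpl43, among the lower-reading members, holds 4 matches to the core sequence that hypoxia-inducible factors bind. Each sequence is the 250 bases before the annotated start, from RefSeq on GRCm38.p6, written 5' to 3' along the gene. Capitals mark matches on either strand to the HIF core (ACGTG or GCGTG), the palindrome of the nuclear respiratory factor NRF1 (the longest run of capitals in the Mrpl32 sequence), the ETS motif bound by GABP (CCGGAAG) and the YY1 motif (AAGATGG). Mrpl32 lies at chr13:14613038-14613287 on the minus strand, Mrps6 at chr16:92058086-92058335 on the plus strand, Mrps17 at chr5:129715247-129715496 on the plus strand and Mrpl43 at chr19:45006443-45006692 on the minus strand.
Mrpl32: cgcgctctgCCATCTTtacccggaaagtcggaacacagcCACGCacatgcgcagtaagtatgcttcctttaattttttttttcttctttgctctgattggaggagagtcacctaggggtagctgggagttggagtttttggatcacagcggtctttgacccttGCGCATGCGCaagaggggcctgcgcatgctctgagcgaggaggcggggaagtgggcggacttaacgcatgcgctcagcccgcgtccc
Mrps6: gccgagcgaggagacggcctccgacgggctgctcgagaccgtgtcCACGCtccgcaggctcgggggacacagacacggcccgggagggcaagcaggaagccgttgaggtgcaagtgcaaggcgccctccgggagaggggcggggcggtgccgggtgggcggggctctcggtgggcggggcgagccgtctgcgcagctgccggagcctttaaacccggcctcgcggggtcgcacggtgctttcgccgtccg
Mrps17: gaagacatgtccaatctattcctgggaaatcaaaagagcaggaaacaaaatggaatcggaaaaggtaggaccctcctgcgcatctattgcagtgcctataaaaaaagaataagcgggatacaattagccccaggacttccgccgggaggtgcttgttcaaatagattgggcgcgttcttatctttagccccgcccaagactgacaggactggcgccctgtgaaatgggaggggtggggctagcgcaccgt
Mrpl43: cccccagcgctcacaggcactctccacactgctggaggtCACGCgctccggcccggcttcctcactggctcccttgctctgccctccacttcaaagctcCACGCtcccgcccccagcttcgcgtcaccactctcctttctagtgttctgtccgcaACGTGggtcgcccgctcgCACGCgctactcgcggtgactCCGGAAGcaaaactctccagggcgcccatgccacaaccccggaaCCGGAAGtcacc
The Mrpl32 sequence holds an NRF1 palindrome whose first base is at -87 from the start, a HIF core at -211 and a YY1 match at -241. Mrps6 holds a HIF core at -205, Mrps17 holds none of these motifs, and Mrpl43 holds ETS matches at -56 and -12 with HIF cores at -211, -151, -95 and -77. Members with 3 HIF cores differed either way, such as Mrpl14 by 0.14 and Mrps24 by -0.13. A match is a description of letters and does not show that a factor binds there.

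Over all members, 65 of 74 genes matched the promoter table, with 71 promoters. A HIF core stood in 40 of them, or 56.3%, against 56.6% of the 8194 promoters of tested genes and 38.6% of all 32851 promoters. ETS matches stood in 16 member promoters, 22.5% against 14% for tested genes. YY1 matches stood in 6, 8.45% against 4.42%. The NRF1 palindrome stood in 3, 4.23% against 1.65%. The E-box CACGTG, which contains a HIF core, stood in 9.86% against 8.48%, and the TATA sequence TATAAA in 7.04% against 6.46%. The letters that hypoxia-inducible factors recognise were thus about as frequent ahead of these genes as ahead of tested genes in general, and these shares were not tested.

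Many members share their upstream region with a gene on the other strand. A start of another gene pointing away lay within 1000 bases for 24 of the 65 members, or 36.9%, against 20.2% of tested genes and 12.3% of all genes. Mrpl46 and Mrps11, a large and a small subunit gene, start 42 bases from each other. Mrps12 faces away from Sars2, the mitochondrial seryl-tRNA synthetase, at 147 bases, and Mrpl43 from Twnk, the helicase of mitochondrial DNA, at 116 bases. Mrpl47 is paired with the complex I subunit gene Ndufb5 at 308 bases, and Mrpl32 with the proteasome gene Psma2 at 205 bases. Of these partners, 10 were tested and 0 were called by limma, with 0 at an unadjusted p under 0.05.

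No mitochondrial ribosomal protein gene passed the threshold. Of 73 tested members, 40 read higher and 33 lower in deficient tumours. That was 54.8% higher, against 52.6% of all tested probesets. Of the members 0 were called, where 5 of all 12701 tested probesets were called, or 0.0394%, 2 of them higher (0.0157%) and 3 lower (0.0236%). At an unadjusted p under 0.05 there were 3 members, or 4.11%, 1 higher and 2 lower, against a background of 14.7%, 8.09% higher and 6.57% lower. The lowest adjusted p of any member was 0.134. The members' values overlapped between groups in every case, while 0.496% of all tested probesets had groups that did not overlap.

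The differences were small. The median difference over members was 0.01, with quartiles of -0.07 and 0.12, and over all tested probesets it was 0.02, with quartiles of -0.17 and 0.18. The median size of a difference, ignoring sign, was 0.10 for members and 0.18 for all tested probesets. The typical standard error was about the same, at 0.17 and 0.18. The 95% confidence interval lay within a 1.5-fold change either way for 55 members, or 75.3%, against 51.7% of all tested probesets. It lay within a 2-fold change for 72 members, or 98.6%, against 82.9%, and the exception was Mrps6. These intervals treat the tumours as independent. With sets of tumours that share leading description digits as a random block (consensus correlation 0.35), 39 members lay within 1.5-fold, or 53.4%, against 33.5% of all tested probesets, and 71 within 2-fold, or 97.3%, against 74.9%. The probesets called over the whole table were then 0. The controls fall in 2 such sets and the deficient tumours in 4, so these intervals may still be too narrow. Averaging tumours over the sets gave standard errors of 0.49 for Mrpl50, 0.44 for Mrps6 and 0.15 for Mrps17. The random block gave 0.38, 0.38 and 0.17. Shares within these bounds are not given for the averaged fit.

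The number of calls changed with the weight given to single tumours. With array weights in limma, which ranged from 0.28 for deficient tumour 1 to 4.15 for control tumour 5, 1900 of all tested probesets and 4 members were called. The members were Mrpl32 with a difference of 0.49 (limma adjusted p = 0.00891), Mrpl44 with 0.42 (adjusted p = 0.0337), Mrps18b with 0.50 (adjusted p = 0.0393) and Mrps6 with -0.76 (adjusted p = 0.0394). Without deficient tumours 1 and 5, chosen after seeing the data, 289 of all tested probesets and 1 member were called, Mrpl32 with 0.57 (adjusted p = 0.0236). Leaving out any 1 tumour called 0 members. The median difference over members stayed between -0.07 and 0.17 under every alternative run.

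**Figure D1:**
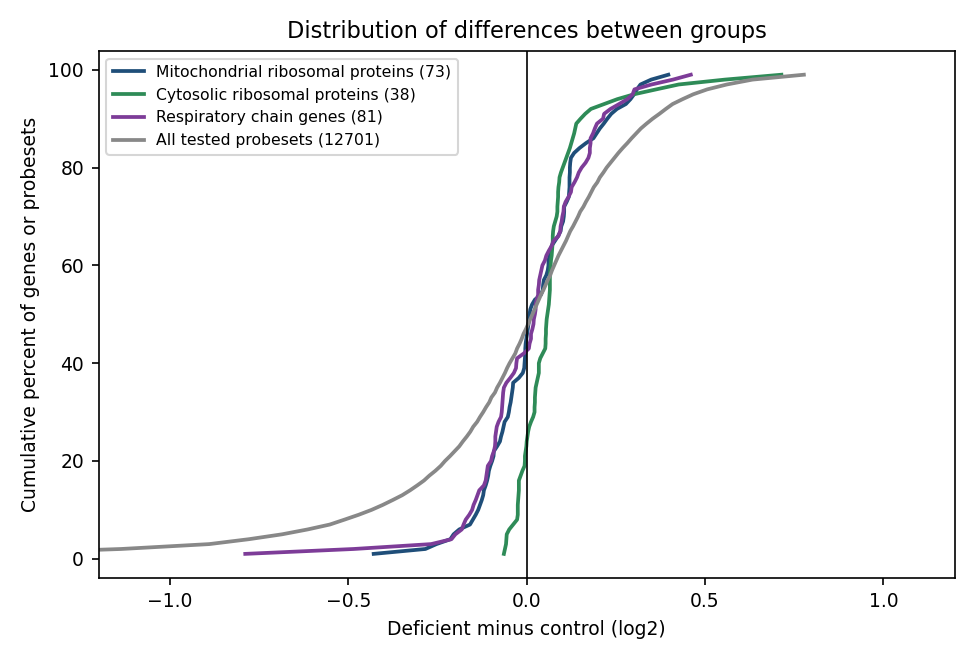
Cumulative distribution of the difference in log2 level, deficient minus control, for mitochondrial ribosomal proteins (73 genes), cytosolic ribosomal proteins (38), respiratory chain genes (81) and all 12701 tested probesets. The member curve rises steeply around its median of 0.01, and the curve of all tested probesets is wider, with quartiles of -0.17 and 0.18.

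Related gene groups also had no called gene in the same fit. Cytosolic ribosomal proteins, which build the ribosome of the cytosol, had 38 genes tested with 29 higher, 9 lower, 0 called and a median of 0.06. Respiratory chain genes, which include the assembly factors of complex I, had 81 tested with 47 higher, 34 lower, 0 called and a median of 0.02. At an unadjusted p under 0.05 there were 2 cytosolic ribosomal genes, or 5.26%, and 5 respiratory chain genes, or 6.17%. The median standard error was 0.09 for the cytosolic group and 0.14 for the respiratory group, against 0.17 for members. The 95% interval lay within a 1.5-fold change for 92.1% and 88.9% of these groups, against 75.3% of members. With the random block these shares were 92.1% and 67.9%, against 53.4%.

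By place in the ribosome, the subunits had like medians. The large subunit, taken by place in the structure and so including Mrps30 and Mrps18a, had 49 genes with 27 higher and 22 lower and a median of 0.01. The small subunit had 24 tested genes with 13 higher and 11 lower and a median of 0.00. Within the large subunit, 28 proteins with bacterial counterparts had a median of 0.06, with 17 higher and 11 lower, and 21 mitochondria-specific ones had a median of 0.00, with 10 higher and 11 lower. Within the small subunit, 14 tested proteins with bacterial counterparts had a median of -0.06, with 5 higher and 9 lower. The 10 classed as mitochondria-specific had a median of 0.12, with 8 higher and 2 lower. Members were taken by symbol, and whether Mrps36, 1 of these 10, is a ribosome protein was not checked. These medians were not tested against each other.

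**Figure D2:**
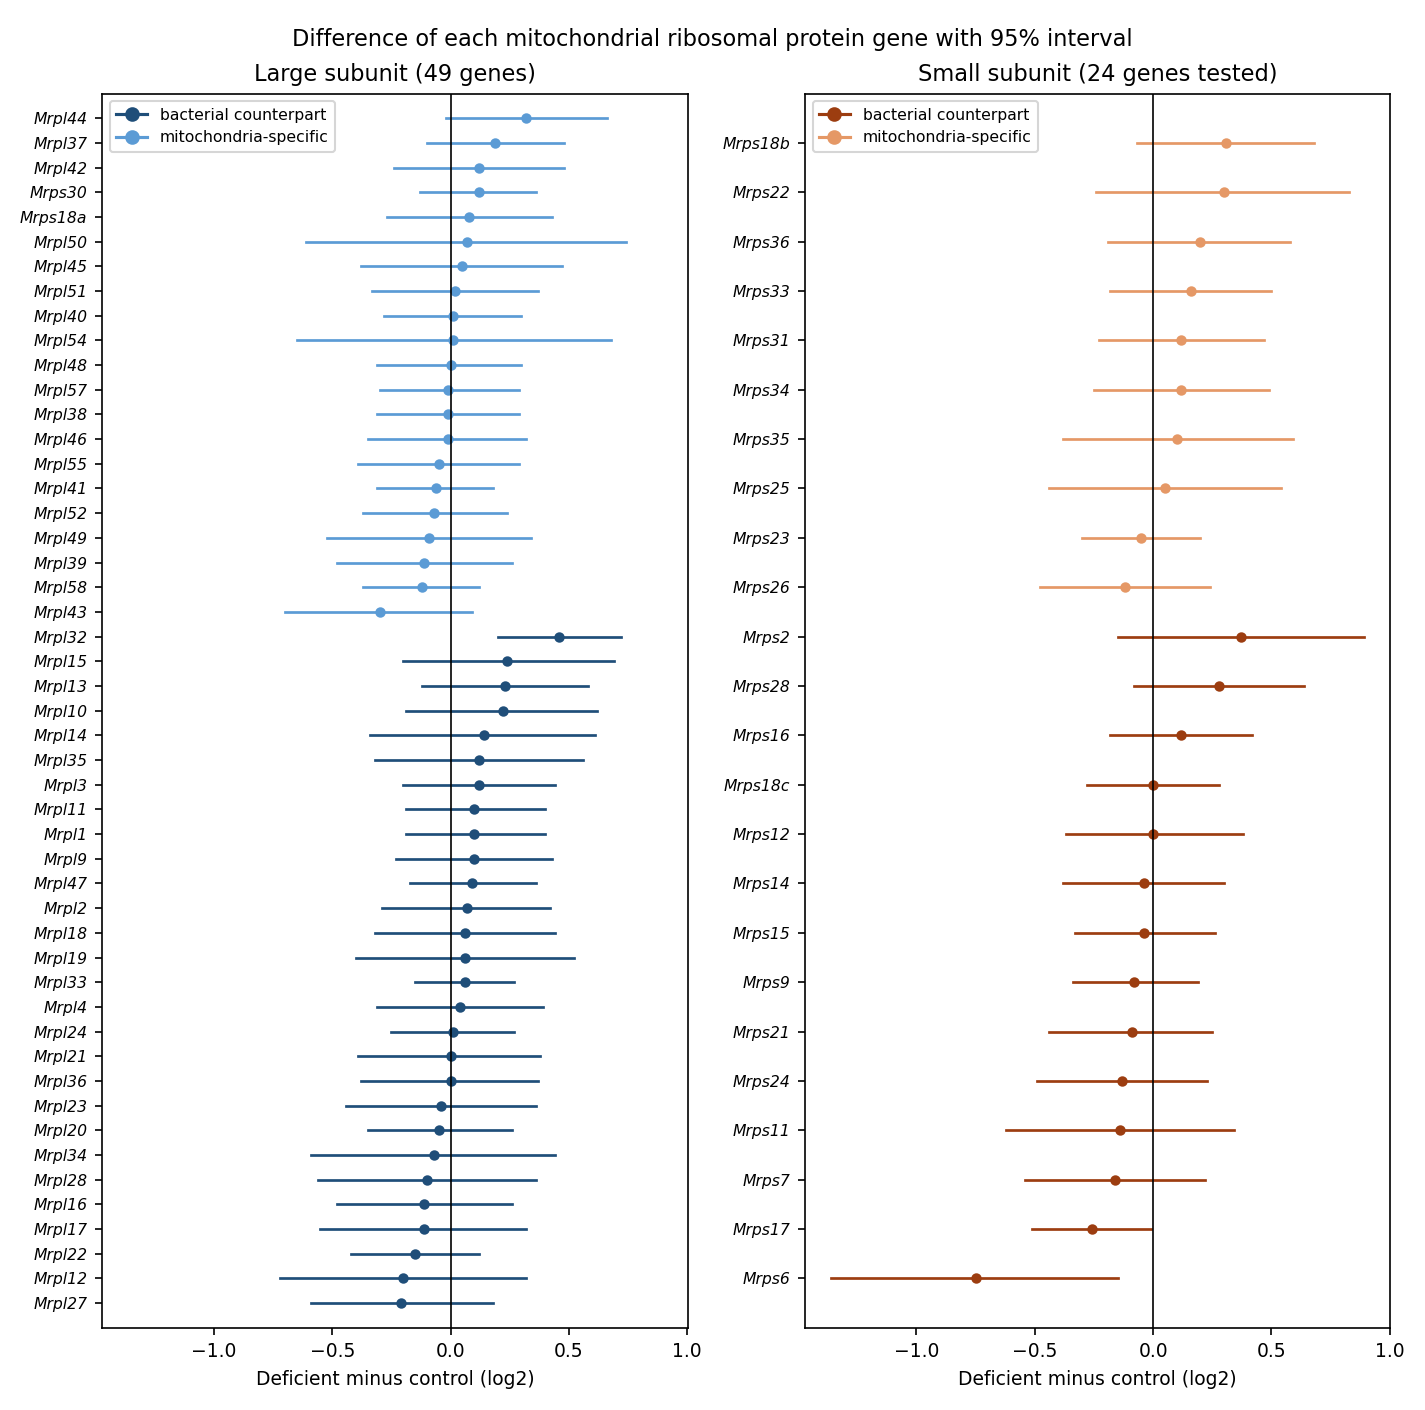
Difference in log2 level, deficient minus control, for each tested member, with its 95% confidence interval from limma. The 49 large subunit and 24 small subunit genes are split into those classed with bacterial counterparts and those classed as mitochondria-specific. Intervals of 70 members cross 0, and those of Mrpl32, Mrps6 and Mrps17 do not.

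Among large subunit proteins with a bacterial counterpart, Mrpl32 had the smallest p of all members. The protein is known to need trimming by a protease of the inner membrane before it can join the ribosome. Its control values ran from 10.14 through a median of 10.29 to 10.49, and its deficient values from 10.32 through 10.81 to 11.07. The deficient tumours lay above the control mean in 6 of 7 cases, and only deficient tumour 1, at 10.32, fell inside the control range. The means were 10.33 ± 0.14 and 10.80 ± 0.26 (SD, n = 7 each), a difference of 0.46 (SE 0.12), or 1.38-fold with an interval of 1.15 to 1.65, with an unadjusted p of 0.00177 and a limma adjusted p of 0.134. Psma2, across the shared upstream region, read 11.09 ± 0.09 and 11.26 ± 0.16 (SD, n = 7 each), a difference of 0.17 (SE 0.09, limma adjusted p = 0.407).

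Other large subunit members with bacterial counterparts differed by less than their spread allowed to call. Mrpl13 read 9.95 ± 0.38 and 10.18 ± 0.21 (SD, n = 7 each), a difference of 0.23 (SE 0.16, limma adjusted p = 0.551). Mrpl22, which lines the exit tunnel for the new chain, differed by -0.15 (SE 0.13, adjusted p = 0.627). Mrpl27, which reaches towards the site where peptide bonds form, differed by -0.21 (SE 0.18, adjusted p = 0.633). Mrpl24, among the members with the highest mean level, differed by 0.01 (SE 0.12). With deficient tumours 1, 3 and 5 left out, Mrpl22 differed by -0.27 (SE 0.11), Mrpl27 by -0.05 (SE 0.18) and Mrpl24 by 0.13 (SE 0.13), all uncalled.

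Mrpl12, the stalk protein that recruits translation factors and is also known to bind the mitochondrial RNA polymerase, differed in its spread more than in its mean. Its control values ran from 9.63 through 9.88 to 10.14, and its deficient values from 8.57 through 9.78 to 10.67. Deficient tumour 3 was the highest of all 14 arrays and deficient tumour 1 the lowest, so the control range lay inside the deficient range. The means were 9.86 ± 0.19 and 9.66 ± 0.66 (SD, n = 7 each), a difference of -0.20 (SE 0.24, limma adjusted p = 0.736). Without deficient tumours 1 and 5 it turned to 0.12 (adjusted p = 0.717), and without 3 as well it was -0.05 (SE 0.12).

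Among mitochondria-specific large subunit proteins, Mrpl44, whose fold resembles an RNA-cutting enzyme, read highest relative to controls. Its control values ran from 8.75 through 9.17 to 9.84 and its deficient values from 9.20 through 9.44 to 9.89. All 7 deficient tumours lay above the control mean, but control tumour 4, at 9.84, lay above all deficient tumours except 1. The difference was 0.32 (SE 0.16, limma adjusted p = 0.364). Its representing probeset is of the kind that may match other transcripts. Another, of the kind that matches several transcripts of 1 gene, read 0.29 (SE 0.17). The least bright, of the kind designed to match only Mrpl44, read -0.11 (SE 0.24). Mrpl37 differed by 0.19 (SE 0.14, adjusted p = 0.555), but its median was 6.76 in both groups. The 7 deficient tumours lay above the control mean of 6.7, which control tumours 4 and 6, at 6.37 and 6.43, drew down. The Mrpl37 probeset is also of a kind that may match transcripts of other genes. Without deficient tumour 3, which stood highest at 7.48, the Mrpl37 difference was 0.09.

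On the lower side of the same class, Mrpl43 read from 8.87 through 9.28 to 9.69 in controls and from 8.39 through 8.95 to 9.53 in deficient tumours. The ranges overlapped widely, and 5 of 7 deficient tumours were below the control mean. The difference was -0.30 (SE 0.18, limma adjusted p = 0.464). Mrpl58, a peptidyl-tRNA hydrolase that can free stalled ribosomes, differed by -0.12 (SE 0.11, adjusted p = 0.658). Mrpl52 and Mrpl51, among the members with the highest mean level, differed by -0.07 (SE 0.14) and 0.02 (SE 0.17). Leaving out deficient tumours 1, 3 and 5 gave differences of -0.19 (SE 0.15) for Mrpl43, 0.07 (SE 0.10) for Mrpl52 and 0.22 (SE 0.13) for Mrpl51.

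The largest spreads after Mrps6 were those of Mrpl50 and Mrpl54. Mrpl50 read 7.19 ± 0.32 and 7.25 ± 0.83 (SD, n = 7 each), where deficient values ran from 5.62 to 8.16. Mrpl54 read 6.88 ± 0.45 and 6.89 ± 0.76 (SD, n = 7 each), with deficient values from 5.41 to 7.77. In both genes deficient tumour 1 was the lowest array and deficient tumour 3 the highest. Their differences were 0.07 (SE 0.31) and 0.01 (SE 0.31). Without deficient tumour 1 they were 0.34 and 0.26, without 1 and 5 they were 0.49 (SE 0.18, limma adjusted p = 0.139) and 0.38 (SE 0.23, adjusted p = 0.351), and without 1, 3 and 5 they were 0.37 (SE 0.17) and 0.25 (SE 0.23). These differences therefore rest on single tumours.

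Among small subunit proteins with bacterial counterparts, Mrps6, a protein of the platform, had the largest difference of any member. Its control values ran from 8.20 through 8.63 to 9.17 and its deficient values from 6.98 through 7.88 to 9.05. The deficient tumours lay below the control mean in 6 of 7 cases, and deficient tumour 3, at 9.05, stood near the top of the control range. The means were 8.66 ± 0.40 and 7.90 ± 0.70 (SD, n = 7 each), a difference of -0.75 (SE 0.28), or 0.593 of the control level with an interval of 0.389 to 0.904, with an unadjusted p of 0.0185 and a limma adjusted p of 0.249. In the same comparison the mean club cell marker score was 0.89 in controls and -0.89 in deficient tumours. Of its 7 markers 6 read lower, while Scgb1a1 differed by 0.06 (SE 0.11). The ciliated score was 1.34 in controls and -1.34 in deficient tumours, and the endothelial score 0.25 and -0.25. Deficient tumour 3, with the highest Mrps6 value of its group, scored -1.25, -2.82 and -1.91 for these 3 cell types. Deficient tumour 2, with the lowest at 6.98, scored -1.77, -1.78 and -0.25. The part of cell makeup in the Mrps6 difference was not tested.

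Mrps17 differed by less. Its control values ran from 8.86 through 8.96 to 9.52 and its deficient values from 8.63 through 8.79 to 8.99. All 7 deficient tumours lay below the control mean of 9.05, and the ranges overlapped between 8.86 and 8.99. Control tumours 6 and 7, at 9.52 and 9.23, stood above the other controls and raised that mean. The difference was -0.26 (SE 0.12), or 0.834 of the control level, with an unadjusted p of 0.0408 and a limma adjusted p of 0.322. Without control tumour 6 it was -0.18 (SE 0.10, limma adjusted p = 0.473). Mrps7, a protein of the head, differed by -0.16 (SE 0.18, adjusted p = 0.714), and by -0.03 (SE 0.15) without deficient tumours 1, 3 and 5. Mrps2 differed by 0.37 (SE 0.24, adjusted p = 0.509) and Mrps28 by 0.28 (SE 0.17, adjusted p = 0.454).

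Mammals have 3 paralogs of bacterial S18, and none was called. Only Mrps18c was classed here with bacterial counterparts, and Mrps18a and Mrps18b were classed as mitochondria-specific. Mrps18b, a small subunit protein, ran from 8.86 through 9.30 to 9.68 in controls and from 9.09 through 9.65 to 10.19 in deficient tumours, a difference of 0.31 (SE 0.18, limma adjusted p = 0.434). Mrps18c, also in the small subunit, read 10.58 ± 0.16 and 10.58 ± 0.29 (SD, n = 7 each), a difference of 0.00 (SE 0.13). Mrps18a, which sits in the large subunit, read 7.92 ± 0.24 and 8.0 ± 0.36 (SD, n = 7 each), a difference of 0.08 (SE 0.16). The differences without deficient tumours 1, 3 and 5 were 0.39 (SE 0.16) for Mrps18b, 0.05 (SE 0.11) for Mrps18c and 0.31 (SE 0.15) for Mrps18a. Differences between these paralogs were not tested. Of the mitochondria-specific small subunit proteins, Mrps22, known for human mutations that cause mitochondrial disease, differed by 0.30 (SE 0.25, adjusted p = 0.623). Leaving out 1 tumour moved that value between 0.15, without control tumour 6, and 0.45, without deficient tumour 1.

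**Figure D3:**
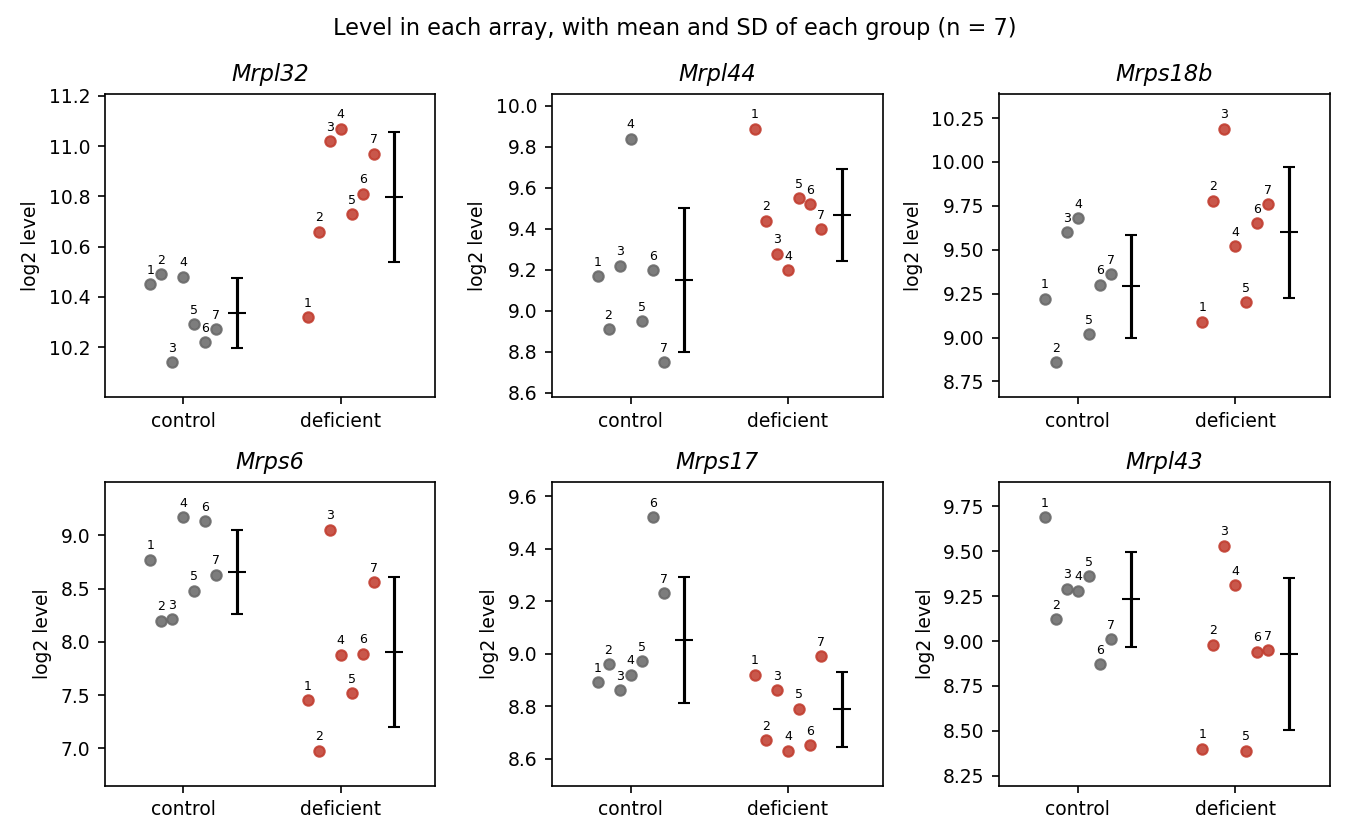
Log2 level of Mrpl32, Mrpl44, Mrps18b, Mrps6, Mrps17 and Mrpl43 in each control and deficient tumour, with group mean and SD. The groups overlap for every gene. For Mrpl32, 6 of 7 deficient tumours lie above all controls, and for Mrps6, 6 of 7 lie below the control mean.

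Several probesets of a gene did not always read alike. Of 23 members with more than 1 tested probeset, 11 had differences of 1 sign and 12 had both signs. The widest spread was in Mrpl15, from -0.10 to 0.40. For Mrpl50 the representing probeset read 0.07 and a dimmer one 0.49. Over all 106 tested member probesets, 63 read higher and 43 lower, 0 were called and 4 had an unadjusted p under 0.05. Of the 74 representing probesets, 3 carry the platform suffix x and 5 the suffix s, marks of probesets that may match transcripts of other genes, and 23 carry the suffix a, which marks a match to several transcripts of 1 gene.

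Members moved together from tumour to tumour, as did related gene groups, and the size of this rested on 3 tumours. Taking each member's deviation from its group mean, the mean correlation between pairs of members over the 14 arrays was 0.41, against 0.29 among cytosolic ribosomal genes, 0.31 among respiratory chain genes and 0.00 among all tested probesets. Within the controls it was 0.26 for members, 0.23 for cytosolic ribosomal genes and 0.33 for respiratory chain genes, and within the deficient tumours 0.47, 0.28 and 0.28. Without deficient tumours 1, 3 and 5 it was 0.19, 0.21 and 0.25, so members no longer had the highest value. These arrays share tumour makeup and hybridisation, so the correlation is a description. Of 73 members, 57 correlated above 0.5 with the mean of the other members, with a median of 0.74. Mrpl12 (0.95), Mrps12 (0.94), Mrpl43 (0.93), Mrps35 (0.92) and Mrpl9 (0.92) followed it most closely. Without deficient tumours 1, 3 and 5, 36 of 73 members correlated above 0.5, with a median of 0.50, and these 5 genes had values of 0.77, 0.76, 0.81, 0.86 and 0.68.

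Few members went the other way. Mrpl33 (-0.62), Mrps17 (-0.37), Mrps9 (-0.28) and Mrpl44 (-0.21) were the 4 members with a correlation below 0. The values without deficient tumours 1, 3 and 5 were 0.31, -0.70, 0.37 and 0.49, so of these 4 only Mrps17 remained below 0, among 9 members that were. Mrpl33, a small protein of the large subunit, read 10.70 in deficient tumour 1 and 10.62 in deficient tumour 5, its highest values, where most members were low. Its means were 10.32 ± 0.09 and 10.38 ± 0.20 (SD, n = 7 each), a difference of 0.06 (SE 0.10).

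A score, the mean deviation of the tested members from their means over all arrays, showed where the movement lay. In controls it ran from -0.18 to 0.17 with an SD of 0.13, and in deficient tumours from -0.41 to 0.46 with an SD of 0.29. The deficient tumours thus lay on both sides of the controls. Deficient tumour 3 stood at 0.46, deficient tumour 1 at -0.41 and deficient tumour 5 at -0.28, and the remaining deficient tumours between 0.03 and 0.13. The spread of single members was larger in deficient tumours for 62 of 73 members, or 84.9%, against 84.2% of cytosolic ribosomal genes, 74.1% of respiratory chain genes and 69.4% of all tested probesets. It was larger without deficient tumours 1, 3 and 5 for 31 members, or 42.5%, against 65.8%, 37.0% and 50.9%.

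Deficient tumour 3 was the highest of the 14 arrays for 39 members, against 15.3% of all tested probesets, and 70 members lay above their own mean there. Deficient tumour 1 was the lowest for 34 members, against 19.2%, with 60 members below their mean, and deficient tumour 5 had 65 below. The median deviation of members was 0.45, -0.46 and -0.30 in these tumours, against 0.03, -0.01 and -0.01 for all tested probesets. The 4 classes moved together, from 0.39 to 0.60 in deficient tumour 3 and from -0.44 to -0.40 in deficient tumour 1. The description numbers of deficient tumours 1 and 5 share their leading digit, as do those of 3 and 6. Control tumours 1 and 4, a further such set, had the highest control scores, 0.16 and 0.17.

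**Figure D4:**
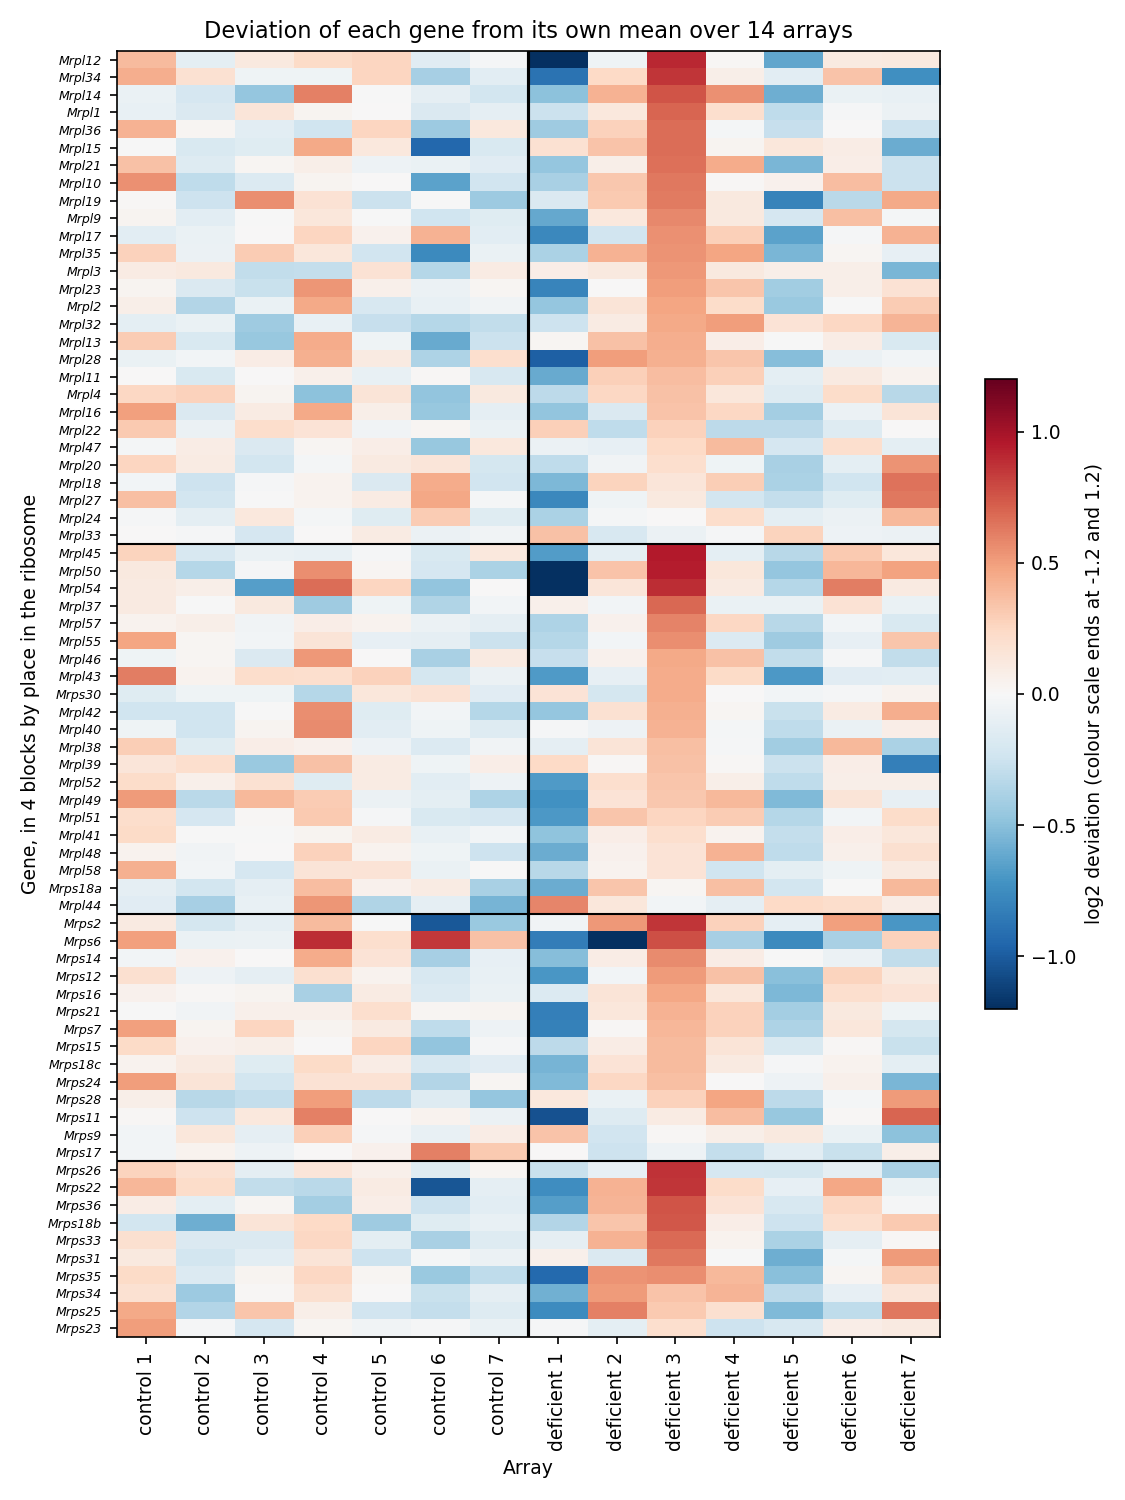
Deviation of each of the 73 tested members from its mean over 14 arrays, with the colour scale limited to 1.2 log2 units either way, genes in rows by class and tumours in columns. Deficient tumour 3 is above average and deficient tumours 1 and 5 are below average for most genes in all 4 classes.

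Cell type markers moved with the same tumours. The endothelial score was -1.91 in deficient tumour 3, the lowest of the 14 arrays, and 0.81 and 0.87 in deficient tumours 1 and 5. The ciliated score was -2.82, 1.21 and 0.52 in those tumours, and the club score -1.25, -0.12 and -0.38. Over groups, 8 of 8 endothelial markers were tested and scored -0.26 to 0.69 in controls and -1.91 to 0.87 in deficient tumours. For ciliated cells, 4 of 7 markers were tested, from -0.52 to 3.50 and from -2.88 to 1.21, and for club cells 7 of 7, from -0.43 to 1.95 and from -1.77 to -0.12. Deficient tumour 6, with an endothelial score of -1.61 and a ciliated score of -2.88, stood at 0.06 for the members. The part of these markers in the members' movement was not tested. The ciliated regulator Foxj1 did not pass the filter, with 4.24 ± 1.68 and 2.49 ± 0.51 (SD, n = 7 each).

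Markers of other cells also differed in these tumours. Macrophage markers, 8 of 8 tested, scored -0.65 to 0.80 in controls and -0.92 to 0.49 in deficient tumours, with -0.92 in deficient tumour 3 and 0.47 and 0.49 in 1 and 5. Lymphocyte markers, 6 of 8, scored -0.52 to 0.81 and -1.04 to 0.76, with -0.44 in deficient tumour 3 and 0.76 and 0.53 in 1 and 5. Fibroblast markers, 7 of 8, scored -0.11 to 0.66 and -0.71 to 0.22, lowest in deficient tumour 3. Proliferation markers, 8 of 10, scored -0.30 to 0.43 and -0.70 to 0.81. Alveolar type II markers lay between -0.26 and 0.13 over the 14 tumours, and deficient tumours 3 and 1 held these lowest and highest values. The part of these markers in the members' movement was likewise not tested. The gap between 3' and 5' control probesets, a sign of RNA quality, spanned 2.52 to 3.52 among controls against 2.53 to 3.08 among deficient tumours, with 2.53 in deficient tumour 3 and 3.08 in deficient tumour 1.

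**Figure D5:**
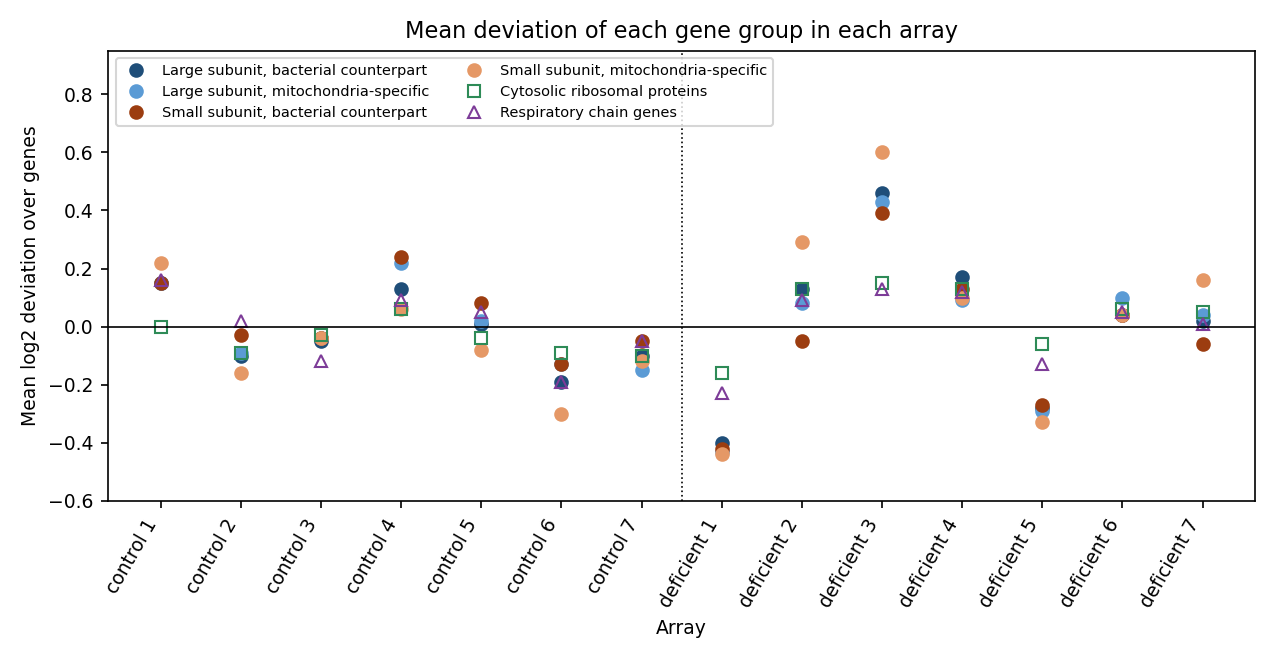
Score per tumour, as the mean deviation in log2 units, in 7 control and 7 deficient tumours. Scores are drawn for cytosolic ribosomal proteins, respiratory chain genes and each class of mitochondrial ribosomal proteins by subunit and bacterial counterpart. The class scores span -0.3 to 0.24 in controls and -0.44 to 0.6 in deficient tumours. Their lowest and highest values are those of deficient tumours 1 and 3.

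Genes that act with the mitochondrial ribosome were examined from lists of their own, and none was called in any of them. Of 5 tested genes with other names, for ribosome proteins and for the membrane insertase Oxa1l, 4 read higher and 1 lower, with a median of 0.09. Ptcd3, a small subunit protein that binds RNA, differed by 0.22 (SE 0.12, limma adjusted p = 0.427) and Oxa1l, which inserts new proteins in the inner membrane, by 0.21 (SE 0.14, adjusted p = 0.51). Their score was 0.66 in deficient tumour 3 and -0.27 in deficient tumour 1, the same directions as the members' score. Of 6 tested translation factors, 3 read higher and 3 lower, with a median of 0.05. The initiation factor Mtif2 differed by 0.13 (SE 0.12, adjusted p = 0.646) and the recycling factor Mrrf by 0.21 (SE 0.21, adjusted p = 0.69).

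Of 9 tested genes that charge mitochondrial tRNAs, 7 read higher and 2 lower, with a median of 0.11 and 1 at an unadjusted p under 0.05. That gene was Rars2, the arginyl-tRNA synthetase, at 7.86 ± 0.21 and 8.24 ± 0.26 (SD, n = 7 each), a difference of 0.38 (SE 0.13, limma adjusted p = 0.22). The histidyl-tRNA synthetase Hars2 differed by 0.29 (SE 0.18, adjusted p = 0.462). Of 12 tested assembly factors, 9 read higher and 3 lower, with a median of 0.14 and 1 at an unadjusted p under 0.05. Tfb1m, which methylates the small ribosomal RNA, read 6.34 ± 0.27 and 6.91 ± 0.47 (SD, n = 7 each), a difference of 0.57 (SE 0.20, adjusted p = 0.216). Fastkd2 differed by 0.36 (SE 0.17, adjusted p = 0.355). Unlike the members, the assembly factors scored 0.43 in deficient tumour 1 and 0.24 in deficient tumour 3.

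Of 11 tested genes of mitochondrial transcription and its regulators, 8 read higher and 3 lower, with a median of 0.11 and 1 at an unadjusted p under 0.05. Gabpb1, a subunit of the GABP factor that binds the ETS motif shown in the Mrpl43 promoter, read 8.77 ± 0.33 and 9.28 ± 0.26 (SD, n = 7 each), a difference of 0.51 (SE 0.16, limma adjusted p = 0.173). Ppargc1a, a coactivator of mitochondrial biogenesis, differed by 0.38 (SE 0.18, adjusted p = 0.354). Of 13 tested genes of general mitochondrial content, 12 read higher and 1 lower, with a median of 0.12 and 2 at an unadjusted p under 0.05. They were the import receptors Tomm20, with a difference of 0.44 (SE 0.14, adjusted p = 0.188), and Tomm22, with 0.37 (SE 0.15, adjusted p = 0.293). Of all tested probesets, 52.6% read higher and 14.7% had an unadjusted p under 0.05. None of the differences in these lists passed the adjusted threshold.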

How the data were processed

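Tumour RNA of 7 control and 7 HIF-2alpha deficient mice was labelled and hybridised to Affymetrix mouse 3' arrays, per the labels' protocols. The authors deposited log2 levels of 22690 probesets. These were made with GCRMA (version not given), per the submitters' processing notes, a method that models background from each probe's base composition before normalising arrays and combining probes. Log2 values ran from 2.12 to 15.4, with 43.9% under 4, where low levels are compressed. From these, 64 control probesets were left out, and limma 3.58.1 (lmFit and eBayes, R 4.3.3) was run on 12701 probesets above 4 in at least 7 arrays, two-sided, with Benjamini-Hochberg adjustment over all of them. No scanner files were used here. The number of arrays limits the precision. Scores average each tested gene's deviation from its mean over 14 arrays. The fit was also run on simulated data with independent noise in each array, which lack the shared movement seen in these tumours.

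Members, gene lists and alternatives were chosen with earlier results of these data known. Named members are those called, then the 8 with the smallest p in each direction, the 3 with the highest mean, the 3 with the largest SD, the Mrps18 paralogs, Mrpl12, members with tested probesets over 0.5 apart and those that failed the filter, and 2 genes from each other functional list. Members named for their correlation, probesets, promoters or partners were chosen after their values were seen. Alternatives changed the filter, normalisation, variance model, array weights, blocks, RNA quality covariate, probeset choice, threshold and the arrays used. Promoters and gene starts came from RefSeq tables on GRCm38.p6.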

Additional observations from a re-analysis of the deposited data

Results flagged for a closer look

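Of 58 groups of 7 values checked for a sample far from the others, 2 held one, and chance gives about 1 in 20. Mrpl44 read 9.84 in control tumour 4, where the next control stood at 9.22 and the lowest at 8.75. That gap took up 0.569 of the whole range. Mrpl37 read 7.48 in deficient tumour 3, where the next deficient tumour stood at 6.97 and the lowest at 6.72, a gap of 0.67 of the range.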

How the results depend on the processing

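The 5 probesets called became 3 with values above 4 required in all arrays, 0 with no filter, 1900 with array weights, 9 with an intensity trend and robust variances, 2 with the replicate block, 11 at an adjusted p under 0.1, and 0 with the shared leading digits of the description numbers as a random block or averaged over. Chosen after seeing the data, leaving out deficient tumours 1 and 5 gave 289, 1, 3 and 5 gave 67, and 3 and 6 gave 32. Leaving out 1 tumour gave 0 to 85, the highest without control 4. Members called became 4 with array weights and 1 without deficient tumours 1 and 5, and 0 under the other alternatives, the replicate block included. Members at an unadjusted p under 0.05 numbered 0 to 11.

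Deviations of same-numbered tumours correlated from -0.2261 to 0.2234. Tumours with different numbers were not compared, so whether the numbers pair tumours cannot be told from these values. Of 23 named tested members, 14 kept their sign under all 29 alternatives. Turned signs were, with the RNA quality covariate, -0.02 for Mrpl24 and -0.02 for Mrpl54. Averaging over the leading digits gave Mrpl51 -0.02, Mrpl50 -0.01 and Mrpl54 -0.09, and the random block gave Mrpl51 -0.01 and Mrpl54 -0.05. Quantile normalisation gave Mrpl51 -0.02 and Mrpl24 -0.03. Without deficient tumours 1 and 5 the values were 0.04 for Mrps7, 0.12 for Mrpl12 and 0.12 for Mrpl52, and without 1, 3 and 5 Mrpl52 was 0.07. Without 3 and 6 they were -0.02 for Mrpl51, -0.19 for Mrpl50 and -0.29 for Mrpl54. The least bright probeset gave -0.11 for Mrpl44. Leaving out 1 tumour gave -0.13 to 0.04 for Mrpl52, -0.03 to 0.14 for Mrpl51, -0.06 to 0.07 for Mrpl24, -0.09 to 0.34 for Mrpl50 and -0.14 to 0.26 for Mrpl54. Mrps18c, at 0.00, had no settled sign and ranged from -0.08 to 0.11. The cause of these shifts was not tested.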
